A study of Marchantia polymorpha with 9 samples.

Results

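MpMYB14 and MpMYB02 are a pair of transcription factor genes of the liverwort Marchantia polymorpha. The rule that chose them used name and gene ID and not their values, though earlier results of these data were known. They are 2 of the 19287 gene IDs in the deposited count table. MpMYB14 is the ID Mapoly0073s0038.v3.1 and MpMYB02 is the ID Mapoly0006s0226.v3.1. The names were tied to these IDs by the rule of selection, since the file itself gives IDs only.

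Both genes encode R2R3-MYB proteins, a large plant family whose members bind DNA through a pair of MYB repeats. Some members switch on whole biosynthetic branches. In Marchantia, MpMYB14 is known as an activator of the phenylpropanoid route to the red, cell-wall-bound auronidin (riccionidin) pigments, which the thallus makes under stress such as nutrient shortage. MpMYB02 is known as an activator of the route to marchantins, bisbibenzyls that are characteristic phenolics of liverworts and are stored in oil body cells. Both branches draw on the same phenylpropanoid precursors, which start from phenylalanine. The MYB lineage of the series, the MIXTA-like lineage, is a different branch of the family, known in flowering plants for shaping epidermal cells and in several species for promoting the cuticle.

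RNA was sequenced from whole thalli, the flat plant body, of 10-day-old male plants of the Cambridge strain, grown on agar from gemmae (vegetative propagules) at 22 °C in days of 16 h light and 8 h dark. The 9 libraries comprise 3 of each genotype. The labels call these WT, OX and KO, taken to stand for wild type, overexpression and knockout. The labels name neither the altered gene nor the promoter or line used. Per the series design there were 3 biological replicates for each line, so that 1 line stands for each genotype and a difference between genotypes cannot be told apart from one between lines. The altered MYB gene was not identified among the IDs, so its own level was not checked here. Library totals were 44802998 to 57696744 counts, with WT replicate 2 the shallowest. All values were even, so 1 read pair appears to have entered as 2 counts. Of 113 Y-chromosome IDs, 34 passed the filter on counts, and 33 of these had counts in all 3 genotypes. The filter itself keeps genes with counts, so this is a weak check of the male label. Other tissue or cell type markers need gene names and were not examined. In whole thalli, fewer cells that express a gene and less RNA per cell cannot be told apart.

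MpMYB14 was at a low level in all 3 genotypes and was highest in KO. In WT it was counted with 12, 16 and 23 read pairs in replicates 1 to 3, or 0.423, 0.724 and 0.797 CPM (the count scaled to library size and TMM factor). In OX it had 11, 25 and 14 pairs, or 0.405, 0.834 and 0.476 CPM. In KO it had 41, 43 and 32 pairs, or 1.45, 1.56 and 1.13 CPM. Each KO library was thus above each WT and OX library, while the WT and OX libraries overlapped. Of all 14813 genes tested, 15.2% had all KO libraries above all WT libraries and 25.3% all KO libraries above all OX libraries. Means were 0.648 ± 0.198 CPM in WT, 0.572 ± 0.230 CPM in OX and 1.38 ± 0.223 CPM in KO (SD, n = 3 libraries each). All libraries stood above 3 pairs, the limit that a count of 0 allows, which corresponds to at most 0.136 CPM in any of them.

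MpMYB02 was lowest in KO. It was counted with 226, 154 and 195 pairs in WT replicates 1 to 3, or 7.97, 6.97 and 6.76 CPM. In OX it had 211, 244 and 250 pairs, or 7.76, 8.14 and 8.50 CPM. KO gave 144, 160 and 135 pairs, or 5.10, 5.79 and 4.76 CPM. All KO libraries lay below all WT and OX libraries, and the lowest OX library lay below the highest WT library. All KO libraries lay below all WT libraries in 15.9% of genes tested, and below all OX libraries in 23.8%. The means were 7.23 ± 0.648 CPM in WT, 8.13 ± 0.368 CPM in OX and 5.22 ± 0.526 CPM in KO (SD, n = 3 libraries each). CPM is not scaled to transcript length, so the levels of the pair are not compared with each other.

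**Figure D1:**
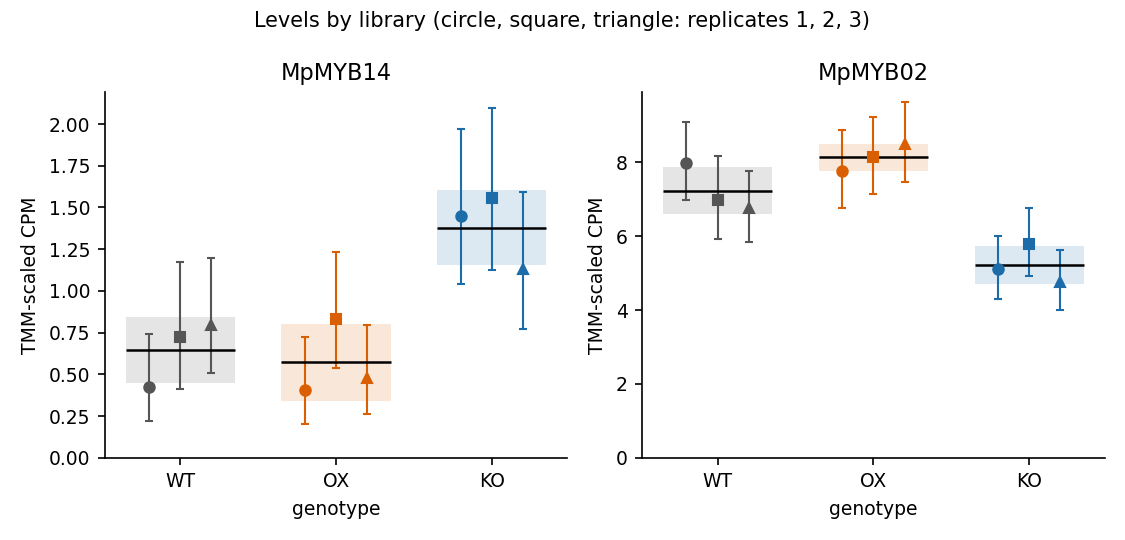
TMM-scaled CPM of MpMYB14 (left) and MpMYB02 (right) in each library, by genotype; vertical bars are 95% exact Poisson intervals of the read pairs, black lines the means and shaded boxes the mean ± SD over 3 libraries. The KO libraries of MpMYB14 (1.13 to 1.56 CPM) lie above the other libraries, and those of MpMYB02 (4.76 to 5.79 CPM) lie below them.

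The depth behind these values differs between the genes. For MpMYB14 in WT replicate 1, the 12 pairs have a 95% exact Poisson interval of 6.20 to 21.0 pairs, or 0.219 to 0.739 CPM. In KO replicate 2, the 43 pairs have an interval of 31.1 to 57.9 pairs, or 1.13 to 2.10 CPM. The relative spread of MpMYB14 between libraries was 30.6% of the mean in WT, 40.3% in OX and 16.2% in KO, where counting alone would give about 24.3%, 24.5% and 16.1%. For MpMYB02 it was 8.95%, 4.53% and 10.1%, against 7.22%, 6.52% and 8.27% from counting. Counting error was thus about as large as the observed spread for MpMYB14 in KO and larger than it for MpMYB02 in OX. The intervals cover counting error only and leave out the spread between libraries. Reads that carry no molecular identifier may be copies of the same molecule, which would make the intervals too narrow.

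The comparison of KO with WT asks whether the regulators of the phenolic branches differ in the genotype labelled KO. Both changed, in opposite directions. MpMYB14 was higher in KO by 1.09 ± 0.32 (SE) on the log2 scale, a 2.13-fold difference with a 95% interval of 1.30- to 3.48-fold (edgeR's quasi-likelihood test, n = 3 libraries each, adjusted p = 0.0462). MpMYB02 was lower in KO, with a log2 fold change of -0.47 ± 0.10 (SE), which makes WT 1.39-fold higher with a 95% interval of 1.18- to 1.63-fold (edgeR, adjusted p = 0.0134). Of all 14813 genes tested, 14.1% were called in this comparison, 6.51% as higher and 7.64% as lower in KO. For neither gene did a KO library reach into the range of WT. The read pairs summed over libraries gave a KO to WT ratio of 2.14 for MpMYB14, with a 95% exact binomial interval of 1.53 to 3.04, and of 0.719 for MpMYB02, with an interval of 0.634 to 0.815. These intervals leave out the spread between libraries and are therefore narrower than those of the test. For MpMYB02 in OX against WT, the same ratio was 1.12 with an interval of 1.00 to 1.26, although edgeR made no call there.

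The call for MpMYB14 was close to the threshold and did not survive every setting. With library size alone as the scaling its adjusted p was 0.0523, at a log2 fold change of 1.06. It was also lost in 6 of 9 fits that left out 1 library. The log2 fold change was then 0.85 without WT replicate 1, 1.17 without WT replicate 2, 1.09 without OX replicate 3, and 1.05, 0.99 and 1.22 without KO replicates 1, 2 and 3. Adjusted p was 0.135, 0.0965, 0.0603, 0.106, 0.147 and 0.0599 in the same order, against 0.0313 to 0.04997 where the call remained. The call for MpMYB02 was lost narrowly without WT replicate 1 (log2 fold change -0.39, adjusted p = 0.0526) and without KO replicate 3 (-0.41, adjusted p = 0.0515). Both directions were kept in all of these fits.

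**Figure D2:**
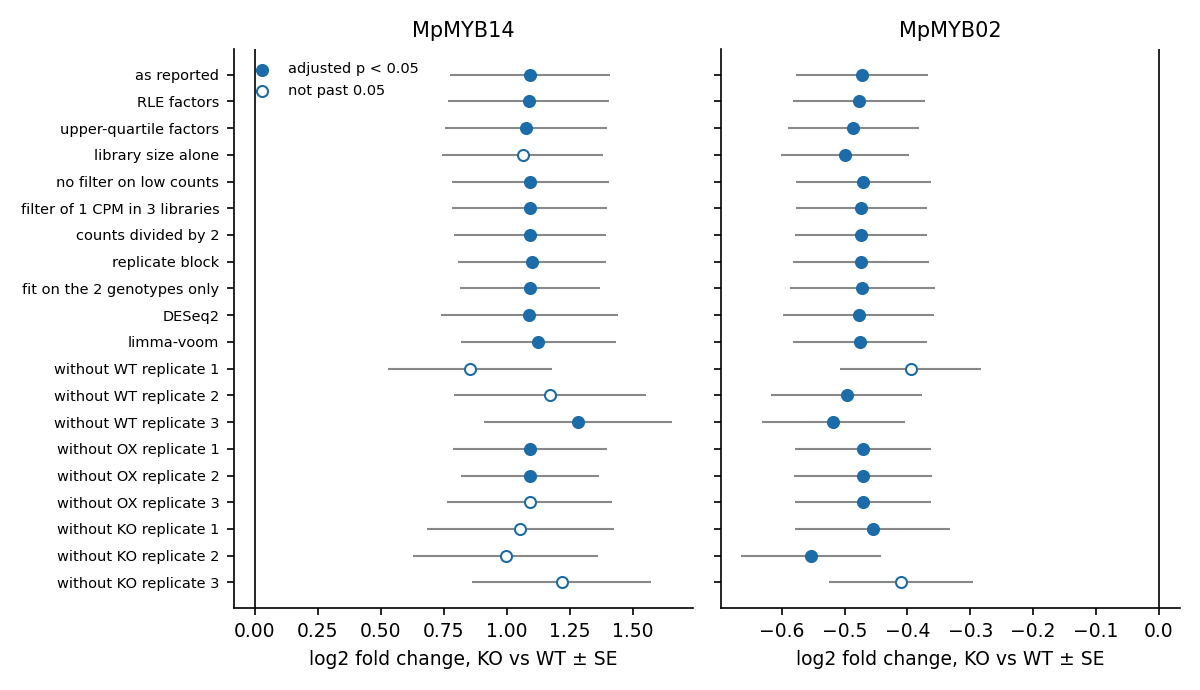
Log2 fold change of KO against WT ± SE for MpMYB14 (left) and MpMYB02 (right), as reported, under each alternative setting and without each library in turn; filled points passed an adjusted p of 0.05 and open points did not. MpMYB14 stays between 0.85 and 1.28 and MpMYB02 between -0.55 and -0.39, while calls are lost in 7 settings for MpMYB14 and in 2 for MpMYB02.

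Set beside other genes, the rise of MpMYB14 was large and the fall of MpMYB02 moderate. A fold change in KO as high as that of MpMYB14 or higher was seen in 259 tested genes (1.75%), and in 184 of the 964 genes called as higher. A fold change as low as that of MpMYB02 or lower was seen in 1248 genes (8.43%), and in 595 of the 1132 called as lower. The median log2 fold change of all tested genes was 0.00, with the middle 95% between -1.10 and 0.86. Low counts widen the spread of fold changes, so the rank of MpMYB14 is a description of size and not of certainty.

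The comparison of OX with WT asks the same of the genotype labelled OX, and neither gene passed the test there. For MpMYB14 the log2 fold change was -0.17 ± 0.34 (SE, edgeR, n = 3 libraries each, adjusted p = 0.762). Its 95% interval reached from 0.529- to 1.49-fold. The sign turned without WT replicate 3 (log2 fold change 0.028) and without OX replicate 1 (0.029). For MpMYB02 the log2 fold change was 0.17 ± 0.10 (adjusted p = 0.27), with an interval of 0.959- to 1.32-fold. This interval does not reach the 0.721-fold level that MpMYB02 had in KO against WT. In OX against WT, 24.8% of all genes tested were called, 10.5% as higher and 14.3% as lower in OX.

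In OX against KO both genes passed the test, again in opposite directions. This comparison uses the same KO libraries as that of KO with WT and adds no separate evidence on them. MpMYB14 was lower in OX (log2 fold change -1.26 ± 0.32, SE), which makes KO 2.40-fold higher with a 95% interval of 1.47- to 3.92-fold (edgeR, n = 3 libraries each, adjusted p = 0.0114). MpMYB02 was higher in OX by 0.64 ± 0.10, or 1.56-fold with an interval of 1.33- to 1.83-fold (edgeR, adjusted p = 8.99e-04). Of all tested genes, 34.7% were called here, 15.6% as higher and 19.1% as lower in OX. Both calls were kept under all alternatives and without each library in turn. Without 1 library, the adjusted p of MpMYB14 (edgeR) was 0.00533 to 0.0485, at its highest just under the threshold. That of MpMYB02 was 8.7e-04 to 0.00449.

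**Figure D3:**
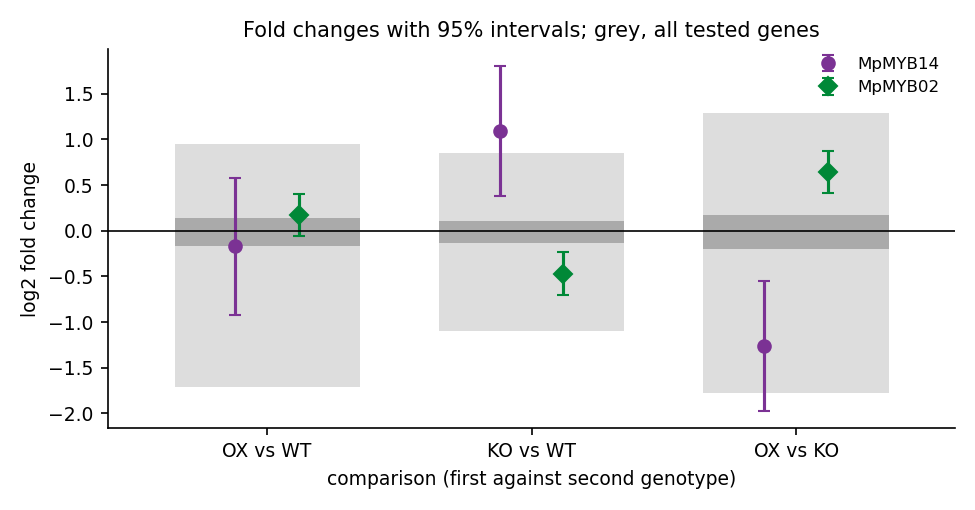
Log2 fold changes of MpMYB14 (circles) and MpMYB02 (diamonds) with 95% intervals in the 3 comparisons; light grey boxes hold the middle 95% and dark grey boxes the middle 50% of 14813 tested genes. The intervals of both genes include 0 in OX against WT only, so neither sign is settled there. In KO against WT and in OX against KO the signs of the genes are opposite.

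The order of the means was KO, WT, OX for MpMYB14 and OX, WT, KO for MpMYB02. For each gene the neighbours WT and OX did not differ beyond their spread, and the KO libraries lay outside the range of both. These are the most frequent orders in the data: KO, WT, OX was found in 22.5% of all genes tested and OX, WT, KO in 24.1%. The full pattern of calls is a stricter condition than an order of means, so its lower share is no result about these genes. Higher in KO than in WT and OX, with no call between these, was the pattern of 433 genes (2.92%) including MpMYB14. The reverse was that of 410 genes (2.77%) including MpMYB02. The place of each gene in its pattern depends on its call in KO against WT. Of 9 fits without 1 library, 3 kept that call for MpMYB14 and 7 kept it for MpMYB02. The test of any difference among the 3 genotypes gave an adjusted p of 0.0155 for MpMYB14 and 0.00212 for MpMYB02 (edgeR), and 36.8% of all genes passed it.

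The ratio of the counts of both genes within a library depends on neither scaling nor transcript length when it is compared between genotypes. For every 100 counts of MpMYB02 there were 5.31, 10.4 and 11.8 counts of MpMYB14 in WT replicates 1 to 3. OX had 5.21, 10.2 and 5.60, and KO had 28.5, 26.9 and 23.7. All KO libraries were thus above all libraries of the other genotypes, and WT and OX overlapped. The log2 ratio was -3.53 ± 0.62 in WT, -3.90 ± 0.54 in OX and -1.93 ± 0.14 in KO (SD, n = 3 libraries each). The genotypes differed in this ratio by an exact permutation test over all 1680 arrangements of the libraries (F = 14.4, p = 0.0143). The test uses the same counts as the tests of each gene and adds no separate evidence on them. The ratio was 3.03-fold higher in KO than in WT and 3.93-fold higher in KO than in OX. A two-sided exact permutation test of 3 libraries against 3 gave p = 0.1 for each, the smallest it allows, and 0.15 after adjustment over the 3 pairs. OX was at 0.772 times the ratio of WT (exact permutation p = 0.4, also 0.4 after adjustment).

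**Figure D4:**
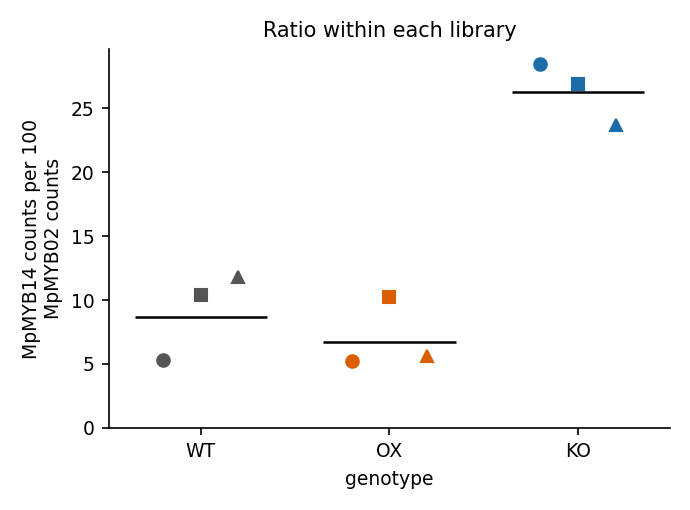
Counts of MpMYB14 per 100 counts of MpMYB02 in each library, by genotype, with replicates 1 to 3 as circles, squares and triangles and the geometric mean as a line. KO libraries lie between 23.7 and 28.5, and those of WT and OX between 5.21 and 11.8.

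The genes whose pattern over the 9 libraries was most like that of each regulator were found by the root mean square difference between log2 CPM profiles, each centred on its own mean. For MpMYB14 the median difference over all tested genes was 0.68, and a profile with no change would have 0.658. The nearest gene was Mapoly0135s0047, with a difference of 0.165. It had 15.7 ± 3.88 CPM in WT, 12.95 ± 4.30 in OX and 26.5 ± 2.16 in KO (SD, n = 3 libraries each), and its log2 fold change of KO against WT was 0.75. The second was Mapoly0123s0042, with a difference of 0.198. It had 9.73 ± 1.56 CPM in WT, 7.97 ± 2.16 in OX and 21.9 ± 1.36 in KO, and its log2 fold change was 1.17. Both IDs were counted far more deeply than MpMYB14, with 1243 and 769 pairs over the WT libraries against 51.

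For MpMYB02 the nearest was Mapoly0006s0097, which carries the same scaffold number in its ID. Its difference was 0.0632, against a median of 0.331 over all genes and 0.287 for a profile with no change. It had 72.4 ± 4.92 CPM in WT, 81.2 ± 1.53 in OX and 54.8 ± 2.66 in KO (SD, n = 3 libraries each), and its log2 fold change of KO against WT was -0.40. The second was Mapoly0013s0079, with a difference of 0.0871 and levels of 26.2 ± 0.881, 27.5 ± 0.627 and 19.5 ± 1.78 CPM in WT, OX and KO. Its log2 fold change of KO against WT was -0.43. The files give no function for these 4 IDs, and likeness of profile was the only measure by which they were picked. Since that choice fixes their pattern, their values are a description and no test of them is given.

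The IDs themselves give some context, since they number genes within scaffolds. Scaffold 73, that of MpMYB14, has 99 other IDs, of which 71 were tested and 30 (42.3%) differed among the genotypes, against 36.8% of all genes. Between WT and KO, 6 rose and 4 fell, and their median log2 fold change was 0.01, against 0.00 for all genes. Scaffold 6, that of MpMYB02, has 309 other IDs, of which 238 were tested and 65 (27.3%) differed. In KO against WT, 8 of them rose and 13 fell, with a median of 0.01. Over all genes tested, 6.51% rose and 7.64% fell in this comparison.

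Among the 10 tested IDs nearest to MpMYB14 in number, 5 lower and 5 higher, 2 rose and 1 fell in KO against WT, where 14.1% of all genes were called. An ID that lies 2 numbers below it rose from 2.19 to 3.64 CPM. Its log2 fold change was 0.73 ± 0.19 (SE, edgeR, n = 3 libraries each, adjusted p = 0.031). The other rise, of an ID 8 numbers above it, was smaller at 0.165 ± 0.046 (edgeR, adjusted p = 0.0384). The fall was that of an ID 11 numbers below it (-0.357 ± 0.058, edgeR, adjusted p = 0.00244). The IDs directly beside MpMYB14 had at most 0 and 3 pairs in any library and were not tested. Among the 10 nearest to MpMYB02, 0 rose and 1 fell in KO against WT by edgeR, and the fall was that of an ID 4 numbers below it (log2 fold change -0.31 ± 0.07, adjusted p = 0.0205). The tested ID directly above MpMYB02 was deeply counted, with 5023 to 7571 pairs per library, and had a log2 fold change of 0.11 ± 0.11 in KO (adjusted p = 0.581). Whether reads of overlapping or near-identical genes were shared between IDs was not tested.

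**Figure D5:**
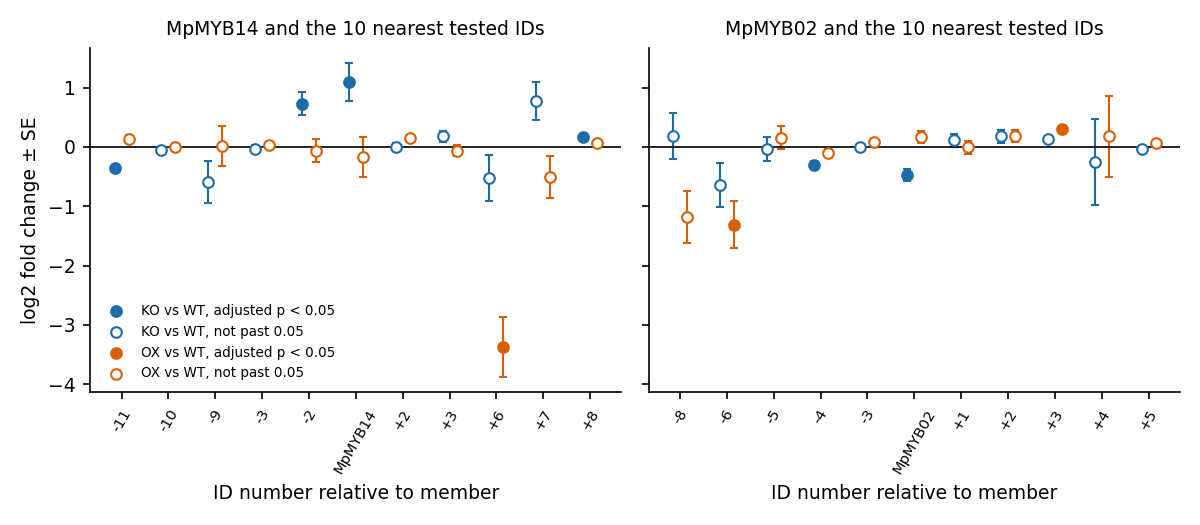
Log2 fold changes ± SE of KO (blue) and OX (orange) against WT for MpMYB14 (left), MpMYB02 (right) and the 10 nearest tested IDs of each, in order of ID number and not to distance; filled points passed an adjusted p of 0.05. On the left, 3 of the IDs shown passed the test as higher in KO, MpMYB14 among them, and 1 passed it as lower. On the right, 2 passed it as lower in KO, MpMYB02 among them, and 0 as higher.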

How the data were processed

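The authors deposited raw counts per gene, 1 column per library. The submitters' processing notes list STAR 2.5.1b and featureCounts 1.5; their settings, strand use and the build were not given in the sources used here. Genes, lists and tests were chosen with earlier results of these data known. Columns were matched to samples by their labels (0 columns were left unused). edgeR 4.0.16 in R 4.3.3 was run on the counts as deposited. Its filterByExpr kept 14813 of 19287 genes, both regulators among them, and TMM factors were 0.958 to 1.04. All 9 libraries entered 1 quasi-likelihood fit with genotype as the only factor, and p-values were Benjamini-Hochberg adjusted over all tested genes (threshold 0.05). SEs and 95% intervals come from the F statistics. Intervals of counts use read pairs, counts divided by 2, of which libraries had 22401499 to 28848372. Chi-square tests of replicate libraries gave 6.25 to 17.0 per degree of freedom, so none was a duplicate. Profiles for likeness used a prior count of 2, and the 2 nearest IDs of each regulator are named. The edgeR script was also run on data simulated from halved counts, with added fold changes larger than that of MpMYB02 in KO against WT. The outcome is not given here and is not used as support. Alternatives used edgeR's other scalings and filters, DESeq2 1.42.0, limma 3.58.1 and fits without each library. Of the 18391 rows of a name table of assembly MpTak2_v7.1, 0 matched the IDs, so a list of phenylpropanoid enzymes defined by product could not be applied, and no coordinates are given. The edgeR p-values weigh differences between genotypes against the spread between replicate libraries, not between independent lines.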

Additional observations from a re-analysis of the deposited data

How the results depend on the processing

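The 4 calls of the regulators in KO against WT and OX against KO kept their direction under 10 other settings: 3 scalings, 2 filters, halved counts, a replicate block, fits on 2 genotypes, DESeq2 and limma-voom. The exception to the calls was MpMYB14 in KO against WT with library size alone, where the log2 fold change was 1.06 (adjusted p = 0.0523; range over the settings 0.0151 to 0.0523). Leaving out 1 library gave 0.85 to 1.28 for this value and -0.55 to -0.39 for MpMYB02 in KO against WT. It gave -0.54 to 0.029 for MpMYB14 in OX against WT, with the sign turned without WT replicate 3 (0.028) and without OX replicate 1 (0.029). Fewer libraries were then in the fit. The number of genes called in KO against WT was 2096 as reported, 3516 with the replicate block and 1293 to 2076 without 1 library, lowest without KO replicate 2. The cause of these moves was not tested. With the replicate block, the log2 fold changes in KO against WT were 1.10 for MpMYB14 (adjusted p = 0.0167) and -0.47 for MpMYB02 (0.00692), and no call of either gene changed. The labels share only numbers: deviations of same-numbered libraries correlated at 0.00961 to 0.241, over 0.1 in 6 of 9 pairs, and those of libraries with other numbers at -0.259 to 0.023. Deviations were taken from the mean of each genotype, so higher values for same-numbered libraries force lower ones for the others. The ranges overlap and are not separate observations. Same-numbered libraries tended to be more alike, which the design does not explain. The ratio of the regulators kept its direction in all fits, with F between 8.66 and 23.7 without 1 library. MpMYB14 was counted with 11 to 43 pairs per library. At the mean number of pairs in each genotype, its counting error was 16.1% to 24.5% of the mean. In libraries with fewer pairs than their genotype mean, the relative error is larger.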
